A study of Bos taurus with 16 samples.

Results

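DNA replication genes were followed in bovine blastocysts and in bovine embryonic stem cells (bESCs) that had been cultured with or without LY2955303 (LY), an inhibitor of retinoic acid receptor gamma. They are 43 genes that load, start and run the replication fork, taken by their gene names. All 43 were found, each on 1 row, in each of the 3 deposited tables, which list 38959, 37429 and 28303 genes. They comprise 6 origin recognition genes, 3 helicase loading genes, 7 helicase genes, 7 genes that activate the helicase, 4 primase and polymerase alpha genes, 5 genes of polymerases delta and epsilon, 6 clamp and clamp loader genes, 3 genes of the single-strand binding complex and 2 genes of Okazaki fragment maturation.

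All libraries were of wild-type cattle material and carried the same batch label. The first blastocyst table holds 3 DMSO blastocysts, which had only the solvent, and 3 LY10 blastocysts, which had 10 μM LY. By the methods of the study these were in vitro fertilized embryos, 1 embryo per library, with LY added after cleavage at the 2-cell stage, and all media held LIF, FGF2 and IGF1. The second blastocyst table holds 2 blastocysts each of cell2_LY (LY from the 2-cell stage), cell16_LY (LY from the 16-cell stage) and LY_DMSO (solvent), and the labels give no LY concentration for them. The bESC table holds 2 libraries of bESCs in their culture medium, tifx (bESC_tifx), and 2 libraries of bESCs with LY (bESC_LY). These lines were grown on mouse feeder fibroblasts, and their medium itself holds inhibitors of several signalling kinases. By the paper, bESCs had 10 μM LY for 3 days and their control is named DMSO, while the control's label reads tifx. Nothing in the labels says that the bESC libraries of a group came from separate cultures, so their p-values measure the spread between these libraries.

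Before S phase, the origin recognition complex (ORC) together with CDC6 and CDT1 loads the ring helicase MCM2 to MCM7 onto DNA, and geminin (GMNN) blocks CDT1 afterwards so that an origin is used only once per cycle. The kinase CDC7 with its partner DBF4, and the recruitment of CDC45 and the GINS complex, turn the loaded ring into an active helicase. Polymerase alpha with primase then primes synthesis, the RFC complex loads the clamp PCNA, polymerases delta and epsilon extend, RPA covers the single strands, and FEN1 and LIG1 join the lagging-strand fragments. Most of these genes are transcribed most strongly in cycling cells under E2F factors, while a bovine embryo starts out with replication proteins and transcripts laid down in the oocyte.

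Depth was between 7905768 and 15137567 reads on genes in the first blastocyst table, between 11336091 and 17343140 in the second and between 29055323 and 31230432 in the bESC table. The fewest reads of any of the 43 genes in a library were 14 (CDC45), 10 (CDT1) and 171 (PRIM1) in the 3 tables, so all 43 passed the filter on low values and were tested in all 5 comparisons. Values within a table are given as normalized counts, which are reads scaled to the same library size, and levels of different genes are compared in FPKM, which divides fragments by gene length and library size. A gene was called when its unadjusted p was under 0.05 and its log2 fold change was beyond 1 in either direction, in limma over all tested genes. None of the 43 had a Benjamini-Hochberg adjusted p under 0.05 in any comparison, where limma gave 2, 2, 0, 0 and 0 such genes among all genes tested. In bulk libraries such as these, fewer cycling cells and less of a transcript per cell cannot be told apart.

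The levels of the replication genes in blastocysts spanned a very wide range. GMNN and RPA3, the smallest subunit of RPA, were the most abundant, with 137.9 to 537 and 95.2 to 436 FPKM over the 12 blastocyst libraries. PCNA (88.4 to 267 FPKM), GINS1 (49.5 to 186 FPKM), RPA2 (54.8 to 161 FPKM) and MCM6 (46.0 to 211 FPKM) also stood high in every blastocyst. At the other end, by their blastocyst medians, were CDT1, POLE, the catalytic subunit of polymerase epsilon, with 0.45 to 2.12 FPKM, the GINS subunit gene GINS4 with 1.64 to 4.37 FPKM, POLA1, the catalytic subunit of polymerase alpha, with 2.08 to 5.18 FPKM, and POLD1, that of polymerase delta, with 0.92 to 5.86 FPKM. POLE and POLD1 each stood below its partner in every blastocyst, POLE below POLE2 (7.11 to 27.9 FPKM) and POLD1 below POLD2 (2.74 to 23.2 FPKM).

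**Figure D1:**
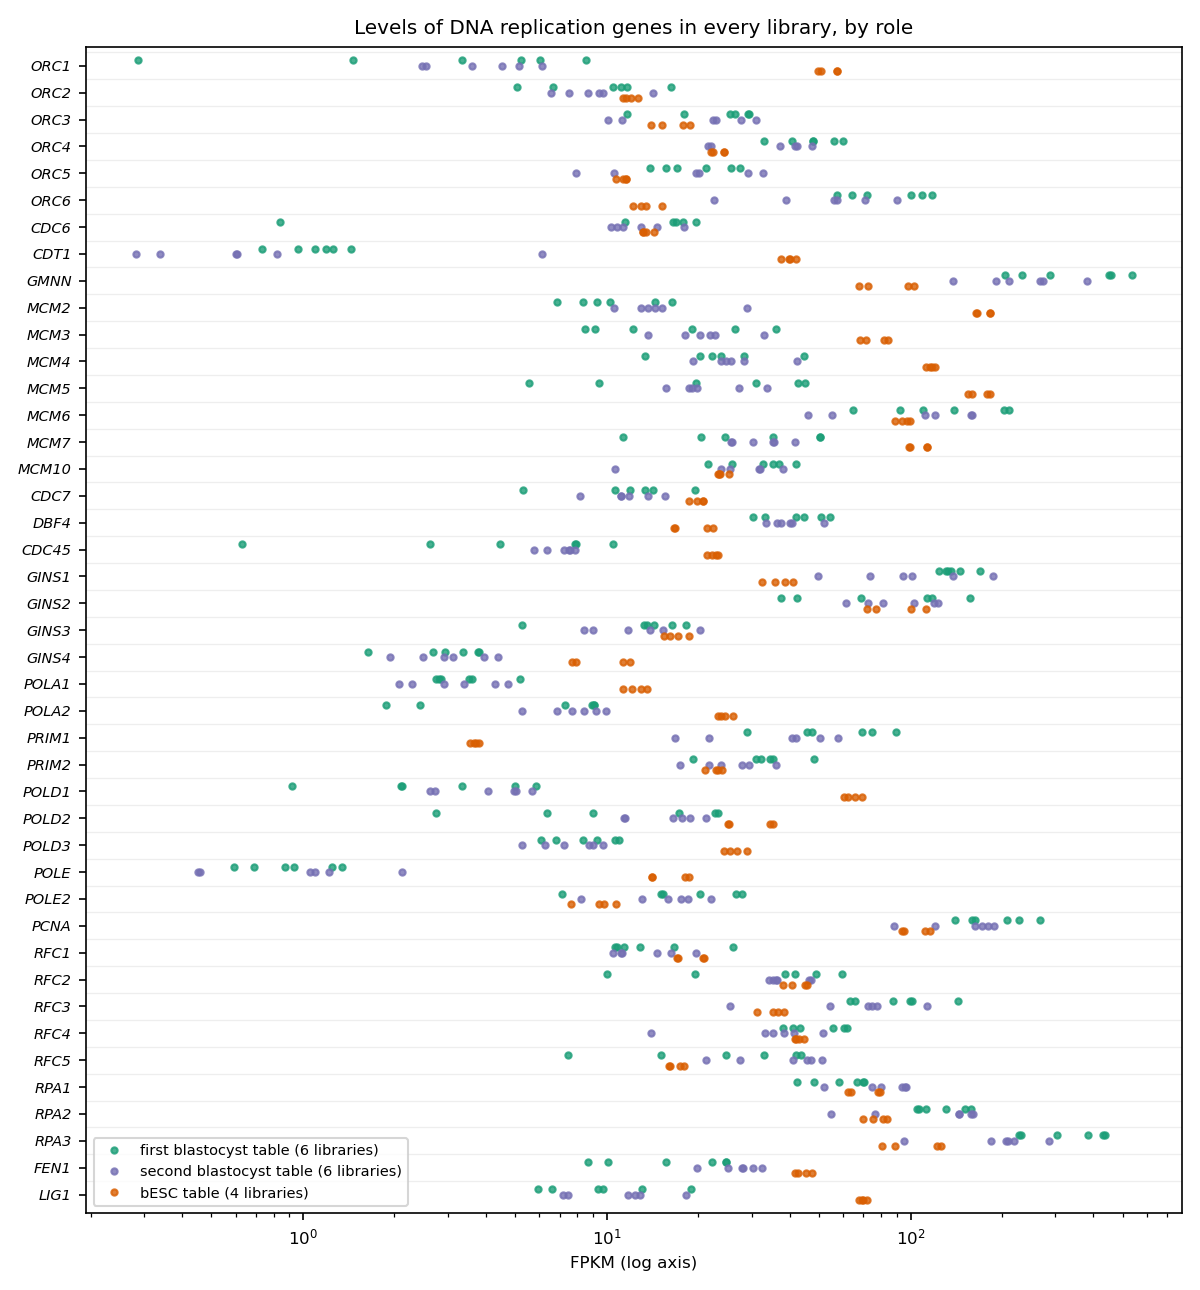
FPKM (log axis) of the 43 DNA replication genes, ordered by role, with 1 point per library and 1 colour per table. ORC1, CDT1, MCM2, POLD1 and POLE lie higher in all 4 bESC libraries than in all 12 blastocysts, and PRIM1 and ORC6 lie lower.

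The helicase loader CDT1 was scarce in blastocysts and its blocker geminin was abundant. CDT1 stood at 1.26, 1.43 and 1.10 FPKM in DMSO, 1.19, 0.73 and 0.96 in LY10, 0.34 and 0.28 in LY_DMSO, 0.82 and 0.61 in cell16_LY, and 6.10 and 0.60 in cell2_LY. Cell2_LY replicate 1 was therefore the only blastocyst above 2 FPKM. In the bESC libraries CDT1 stood between 37.5 and 42.1 FPKM. The ratio of GMNN to CDT1 FPKM was between 162 and 732 in the first blastocyst table and between 256 and 1122 in 5 libraries of the second, and it was 22.6 in cell2_LY replicate 1. It was between 1.71 and 2.44 in bESCs.

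The 6 subunits of the MCM ring, which assemble in equal numbers, were far from equal in transcript level in blastocysts. MCM6 was the highest of MCM2 to MCM7 in all 12 blastocysts and made up 43.1% to 63.0% of their summed FPKM in 10 of them. Cell2_LY differed, with 22.5% and 35.0%. MCM2 was the lowest in 9 of the 12 blastocysts, and in all 4 bESC libraries it was the highest, at 165 to 183 FPKM. The highest MCM subunit exceeded the lowest by 8.32 to 19.8 times in the 10 blastocysts outside cell2_LY, by 2.41 and 4.02 times in cell2_LY, and by 1.95 to 2.69 times in bESCs. Cell2_LY replicate 1 thus lay within the range of the bESC libraries.

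Origin recognition genes showed the same kind of contrast. ORC6 was the highest and ORC1 the lowest of the 6 in all 12 blastocysts, whereas in all 4 bESC libraries ORC1 was the highest and ORC5 the lowest. ORC1, the subunit whose level is regulated most through the cell cycle in many cells, stood between 0.29 and 8.56 FPKM in blastocysts and between 49.4 and 57.4 FPKM in bESCs. ORC6 stood between 22.5 and 118 FPKM in blastocysts and between 12.2 and 15.2 FPKM in bESCs. In DMSO replicate 2 the range from ORC1 to ORC6 was 412 times. The annotated length of ORC1 differs between the tables, with 4895 bases in the blastocyst tables and 2790 in the bESC table.

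**Figure D2:**
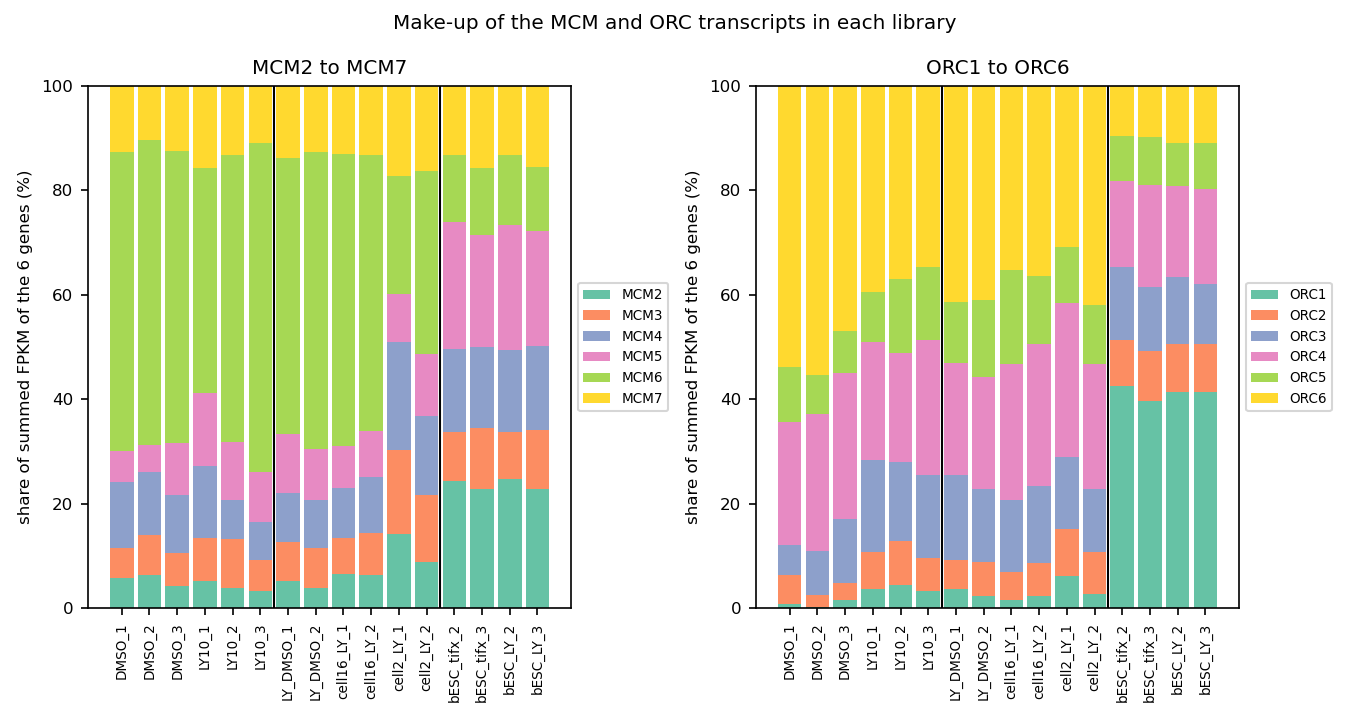
Share of the summed FPKM of MCM2 to MCM7 (left) and of ORC1 to ORC6 (right) held by each gene, with 1 stacked bar per library and lines between the 3 tables. MCM6 and ORC6 hold the largest share in every blastocyst, and MCM2 and ORC1 in every bESC library.

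Over all roles, 17 of the 43 genes had a higher FPKM in every bESC library than in every blastocyst, 5 had a lower FPKM and 21 overlapped. The same was not counted over all genes, so these numbers do not set the replication genes apart from other genes. The 17 were ORC1, CDT1, MCM2, MCM3, MCM4, MCM5, MCM7, CDC45, GINS4, POLA1, POLA2, POLD1, POLD2, POLD3, POLE, FEN1 and LIG1. The 5 lower in bESCs were ORC6, GMNN, DBF4, GINS1 and PRIM1. PRIM1, the catalytic subunit of primase, stood at 3.54 to 3.80 FPKM in bESCs and at 16.8 to 89.3 FPKM in blastocysts, while PRIM2, its partner, overlapped at 21.1 to 23.9 and 17.4 to 48.1 FPKM. These levels are set side by side without a test, because the tables were normalized separately, the blastocyst cDNA was amplified from single embryos while bESC RNA was extracted in bulk, and the tables use different gene models. The part of these differences in the contrast was not tested.

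In the first experiment most replication genes were higher in LY10 blastocysts than in DMSO blastocysts. Of the 43, 37 had a positive and 6 a negative log2 fold change, with a median of 0.64, while the median over all 14249 tested genes was -0.05. In limma 13 were called higher, where 6.20% of all tested genes were called higher, and 0 were called lower, where 8.51% of all genes were. Without the call's limit on size, 18 of the 43 were higher and 2 lower at an unadjusted p under 0.05. Of all 14249 tested genes 3267 had such a p, in either direction. All 3 LY10 libraries exceeded all 3 DMSO libraries for 17 of the 43 (13.8% of all tested genes) and lay below them for 3 of the 43 (14.4% of all tested genes).

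The MCM ring held the largest number of calls of any role, with MCM3, MCM5, MCM6 and MCM7 higher and all 6 ring subunits higher in every LY10 library. MCM5 measured 245, 144 and 511 normalized counts in the DMSO libraries and 1174, 1112 and 809 in LY10. The lowest LY10 library thus stood well above the highest DMSO library, with means of 1032 ± 195 and 300.2 ± 189 (SD, n = 3 each) and a log2 fold change of 1.95 (SE 0.43, adjusted p = 0.0786 in limma). MCM3 measured 293, 272 and 391 in DMSO and 847, 1158 and 612 in LY10 (log2 fold change 1.42, SE 0.30, adjusted p = 0.0783). MCM7 rose from 569 ± 205 to 1373 ± 262 (log2 fold change 1.32) and MCM6 from 2604 ± 674 to 5383 ± 1156 (log2 fold change 1.06). MCM6 lost its call without DMSO replicate 2, LY10 replicate 2 or LY10 replicate 3, with log2 fold changes of 0.84, 0.95 and 0.97. MCM2 and MCM4 had log2 fold changes of 0.72 and 0.77 and were not called. MCM10, which acts when the ring is opened, had 0.28 and overlapping libraries.

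Among the genes that activate the ring, GINS2 and CDC45 rose. GINS2, a subunit of GINS, measured 515, 459 and 837 normalized counts in DMSO and 1384, 1920.0 and 1432 in LY10, with no overlap, and had the smallest p of the 43 (log2 fold change 1.42, SE 0.28, adjusted p = 0.0783). CDC45 measured 58.2, 13.9 and 98.5 in DMSO and 232, 176 and 174 in LY10 (log2 fold change 2.12, SE 0.64). GINS1, another subunit of GINS, measured 4360.1 ± 240.1 in DMSO against 4495 ± 756 in LY10, a log2 fold change of 0.03 (95% interval from -0.43 to 0.50). The kinase genes CDC7 and DBF4 had 0.71 and 0.46 with overlapping libraries.

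ORC1 had the largest fold change of the 43, and the other origin recognition genes did not follow it. It measured 76.1, 14.9 and 174 normalized counts in DMSO and 271, 446 and 313 in LY10 (log2 fold change 2.49, SE 0.75, adjusted p = 0.113). DMSO replicate 2, with the 14.9, gave the widest gap, but the other DMSO libraries also lay below every LY10 library. ORC6 was lower in every LY10 library, with 1597, 1731 and 1469 in DMSO and 843, 1054 and 940.1 in LY10 (log2 fold change -0.76, adjusted p = 0.0957), and was not called because its change was under the limit on size. ORC2, ORC3 and ORC5 had 0.80, 0.67 and 0.26, and ORC4 had -0.44. Summed over the 6 ring subunits and divided by the sum over ORC1 to ORC6, FPKM gave 0.80, 0.52 and 0.92 in DMSO and 2.21, 1.97 and 1.75 in LY10. Every LY10 blastocyst thus held more MCM than ORC transcript per length, and every DMSO blastocyst held less. Every blastocyst of the second table also held more, LY_DMSO included. The ratios there were 1.75 and 1.27 in LY_DMSO, 1.23 and 1.48 in cell16_LY, and 2.80 and 1.69 in cell2_LY.

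The polymerase genes differed by subunit. POLD2, the small subunit of polymerase delta, measured 129.6, 55.7 and 184 normalized counts in DMSO and 472, 463 and 352 in LY10 (log2 fold change 1.94, SE 0.43, adjusted p = 0.0786). POLD1 rose from 63.0 ± 25.3 to 174 ± 46.9 (log2 fold change 1.51). POLD3, POLE and POLE2 had 0.54, 0.64 and 0.47 and were not called. POLA2, the second subunit of polymerase alpha, was called at 1.28 (SE 0.54) although its libraries overlapped, with 82.3, 63.7 and 303 in DMSO against 247, 307 and 308 in LY10. The primase genes PRIM1 and PRIM2 had 0.31 and 0.47.

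At the clamp, RFC5 rose from 721 ± 394 to 1811 ± 259 normalized counts (log2 fold change 1.48, SE 0.40) and RFC2 from 473 ± 303 to 1039.8 ± 189 (log2 fold change 1.33, SE 0.44). PCNA itself had a log2 fold change of 0.12 with overlapping libraries. FEN1, the flap nuclease, measured 305, 263 and 475 in DMSO and 744, 745 and 668 in LY10 (log2 fold change 1.09, SE 0.28, adjusted p = 0.0872), and LIG1, the ligase, had 0.90. RPA3 lay lower in every LY10 library (log2 fold change -0.73, adjusted p = 0.104), and RPA1 and RPA2 had 0.13 and -0.05. GMNN and CDT1 had -0.20 and -0.40 with overlapping libraries, and CDC6 had 1.69 with a 95% interval from -0.44 to 3.82.

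**Figure D3:**
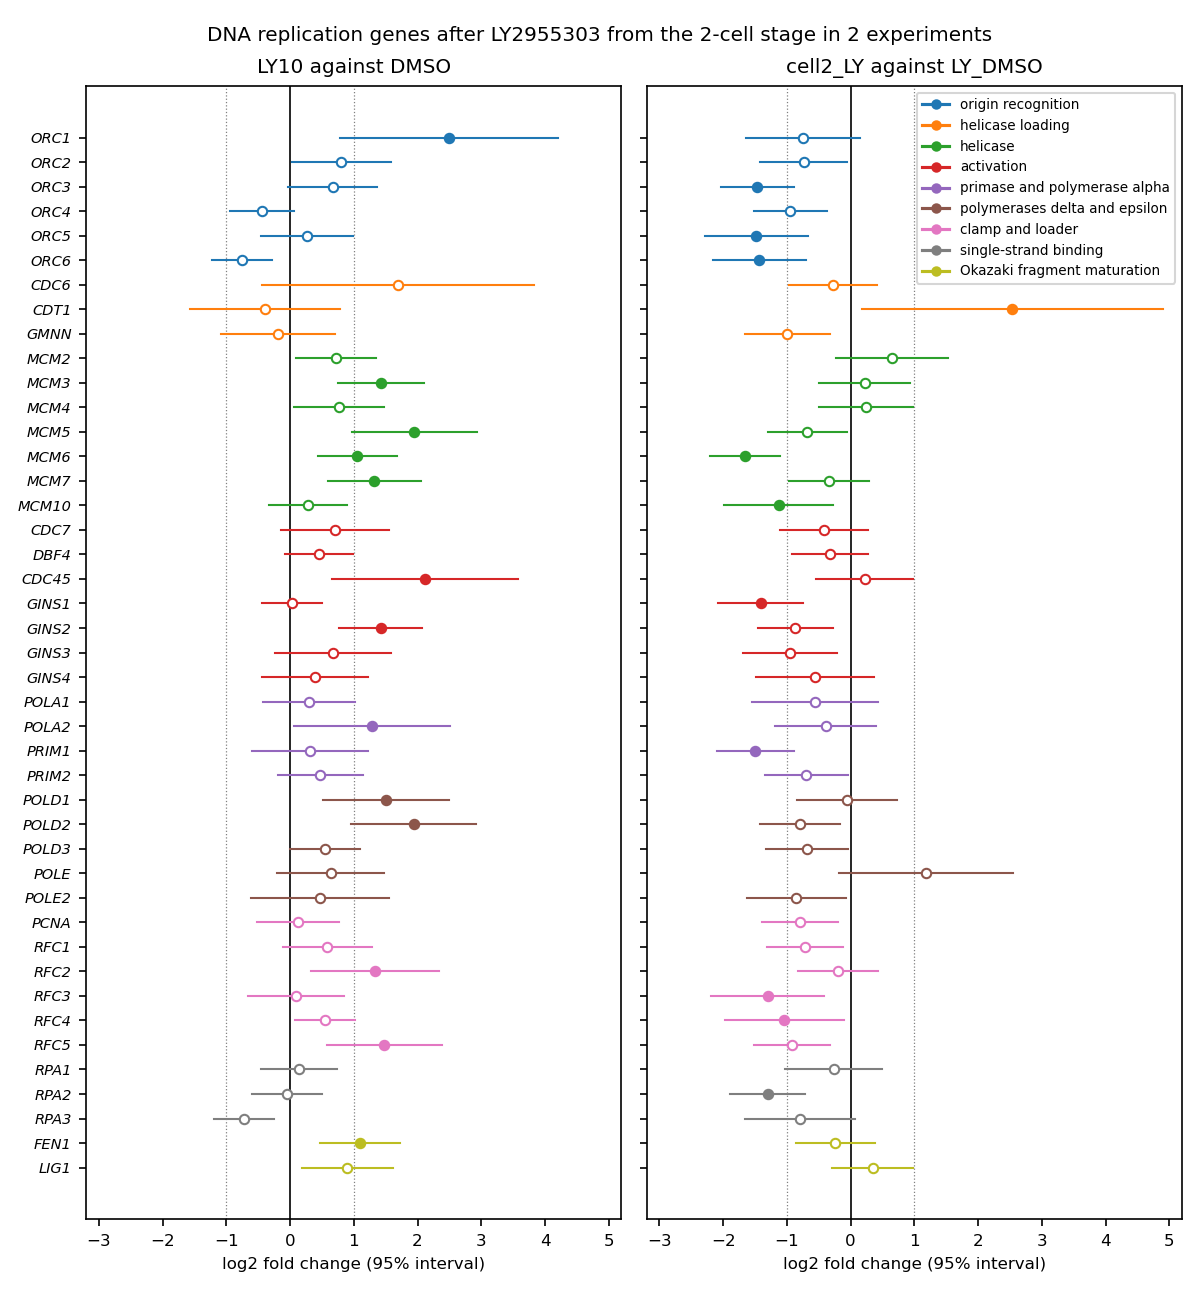
Log2 fold changes (points) with 95% intervals (bars) of the 43 genes in LY10 against DMSO (left) and cell2_LY against LY_DMSO (right), filled where called and coloured by role. The 13 filled points on the left all lie above 0, and of the 11 on the right 10 lie below 0.

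DMSO replicate 2 weighed on the number of calls in this comparison. It had the lowest normalized count of the 6 libraries for 28 of the 43 genes, and the median deviation of the 43 from their table mean was -0.72 on the log2 scale there, against -0.29 and 0.01 in the other DMSO libraries and 0.21, 0.49 and 0.30 in LY10. Without it, 8 of the 43 were called higher and the median log2 fold change was 0.49. Without any other library between 11 and 14 were called. The share of all genes called in each of these fits is not given here. The median coefficient of variation of the 43 was 32.3% in DMSO and 19.1% in LY10, and that of all genes was 35.2% and 27.1%.

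Other markers moved with the groups. Of 6 proliferation markers outside the list (MKI67, CCNB1, CDK1, AURKB, BUB1 and PLK1), 5 were called higher in LY10, and their summed FPKM was 149 to 271 in DMSO and 366 to 402 in LY10. Summed epiblast markers (7 of 8 in the table) were 424 to 571 FPKM in DMSO and 610.4 to 923 in LY10, hypoblast markers (7) 161 to 272 and 227 to 348, and trophectoderm markers (10) 3029 to 7111 and 4181 to 9963. Of the tested ones, 1 of 7 epiblast markers (POU5F1, log2 fold change 1.23) and 2 of 6 hypoblast markers (PDGFRA, 3.74, and HNF4A, 3.31) were called higher in LY10, and 0 of 10 trophectoderm markers were called. PDGFRA stood at 0.53 to 4.26 FPKM in DMSO and 10.6 to 47.1 in LY10, and HNF4A at 0.17 to 0.95 and 2.99 to 5.68. The hypoblast marker GATA6 went the other way, with 64.8 to 107 FPKM in DMSO and 46.2 to 57.3 in LY10, and was not called. GATA4 was also lower in every LY10 library, but it stood near 0 in all 6. Fibroblast markers (6) were at 23.9 to 90.6 and 6.10 to 11.7 FPKM, with 2 called lower in LY10. Cumulus markers (8) were at 1.45 to 5.57 FPKM in all 6 libraries, with AMH at 0 in DMSO and GREM1 at 0 in LY10. Oocyte markers (8 of 9) were at 1.82 to 4.44 FPKM, with FIGLA at 0 in LY10. The part of these in the result was not tested.

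In the second experiment, where LY was also given from the 2-cell stage, most replication genes were lower in cell2_LY than in LY_DMSO. Of the 43, 7 had a positive and 36 a negative log2 fold change, with a median of -0.72, against 0.00 over all 14529 tested genes. In limma 10 were called lower, where 8.34% of all tested genes were, and 1 was called higher, where 8.71% were. At an unadjusted p under 0.05 alone, 23 were lower and 1 higher, where 3577 of all 14529 tested genes had such a p in either direction. Both cell2_LY libraries lay below both LY_DMSO libraries for 31 of the 43 and above them for 3, where the share was 26.9% of all tested genes in either direction.

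All 6 origin recognition genes were lower in both cell2_LY blastocysts, with ORC3, ORC5 and ORC6 called. ORC3 measured 1217 and 1357 normalized counts in LY_DMSO and 442 and 490.2 in cell2_LY, a log2 fold change of -1.46 (SE 0.25, adjusted p = 0.0711). ORC5 fell from 867 ± 293 to 304 ± 62.4 (log2 fold change -1.48) and ORC6 from 1694 ± 289 to 645 ± 243 (log2 fold change -1.43; SD, n = 2 each). ORC4, ORC1 and ORC2 had -0.94, -0.75 and -0.74.

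In the MCM ring MCM6, the subunit with the highest level in every blastocyst, was the 1 that passed the call. MCM6, which lies at chr2:61489675-61524287 on the plus strand in the coordinates of the files (those of RefSeq ARS-UCD2.0), measured 6616 and 6659.9 normalized counts in LY_DMSO and 1925 and 2299 in cell2_LY. The difference of 3.15 times (log2 fold change -1.66, SE 0.24, adjusted p = 0.0711) was many times the spread within either pair. MCM5 had -0.68 and MCM7 -0.35. MCM2, MCM3 and MCM4 had 0.65, 0.22 and 0.24 with overlapping libraries, and for all 3 cell2_LY replicate 1 was the highest of the 6 libraries of the table, at 1472, 1515 and 2010.4 normalized counts. MCM10 fell from 2468 ± 304 to 1212 ± 652 (log2 fold change -1.13).

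PRIM1, RPA2 and GINS1, from 3 steps of the fork (priming, single-strand binding and helicase activation), also fell. PRIM1 measured 1428 and 1250.3 in LY_DMSO and 416 and 539.5 in cell2_LY (log2 fold change -1.49, SE 0.27). RPA2 measured 4225 and 4316 in LY_DMSO and 1468 and 2041 in cell2_LY (log2 fold change -1.30, SE 0.26). GINS1 measured 6262 and 8443 in LY_DMSO and 2246 and 3335 in cell2_LY (log2 fold change -1.41, SE 0.29). All 3 genes had no overlap between the groups. The clamp loader genes RFC3 and RFC4 fell with log2 fold changes of -1.30 and -1.04, and in both cell2_LY replicate 1 was the lower library (465 against 998 for RFC3 and 306 against 723 for RFC4). Without that library neither passed the call (log2 fold changes of -0.75 and -0.42), nor did MCM10 (-0.55). RFC3 and MCM10 also lost their calls without LY_DMSO replicate 2 and RFC4 without LY_DMSO replicate 1, and RFC4 and MCM10 under quantile scaling and with reads on genes as the library size. RPA2 lost its call under quantile scaling (-0.93).

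The helicase loading genes split. GMNN had a log2 fold change of -0.99 (adjusted p = 0.104), just short of the limit on size. CDT1 was the 1 gene called higher, with 11.1 and 9.24 normalized counts in LY_DMSO and 199.8 and 19.7 in cell2_LY (log2 fold change 2.53, SE 1.04, adjusted p = 0.178). This call rested on cell2_LY replicate 1, and without that library 0 of the 43 were called higher. POLE, LIG1 and CDC45 were positive too, with 1.18, 0.34 and 0.22, and none of them was called. POLD1 had -0.05.

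Cell2_LY replicate 1 stood apart from the other libraries of its table. It had the lowest normalized count of the 6 for 26 of the 43 genes and the highest for 8, and its library size as implied by FPKM was 1.23 times its reads on genes, against 0.95 to 1.04 in the other 5. Without cell2_LY replicate 1 the median log2 fold change of the 43 was -0.58, and without cell2_LY replicate 2 it was -0.81. The proliferation markers were at 404 to 449 FPKM in LY_DMSO and 127 to 246 in cell2_LY, with 2 of 6 called lower. Trophectoderm markers were at 4418 to 5389 and 5621 to 8196 FPKM, with 2 of 10 called higher (CDX2 with 2.78 and GATA2 with 1.99). Epiblast markers were at 534 to 709 and 426 to 557, with 1 of 7 called lower (DPPA3, -1.59), and hypoblast markers at 261 to 473 and 265 to 333, with 1 of 6 called lower (PDGFRA, -2.01). The hypoblast marker GATA6 went the other way, with 58.6 and 61.2 FPKM in LY_DMSO and 88.5 and 91.7 in cell2_LY, and was not called. Fibroblast markers were at 11.8 to 17.6 and 10.9 to 15.6 FPKM, and cumulus and oocyte markers were at most 4.23. At 0 were SOX17, COL3A1, AMH, ZP4 and FIGLA in LY_DMSO and PTX3, TNFAIP6, GREM1, BMP15, ZP4 and FIGLA in cell2_LY. The part of these in the result was not tested.

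**Figure D4:**
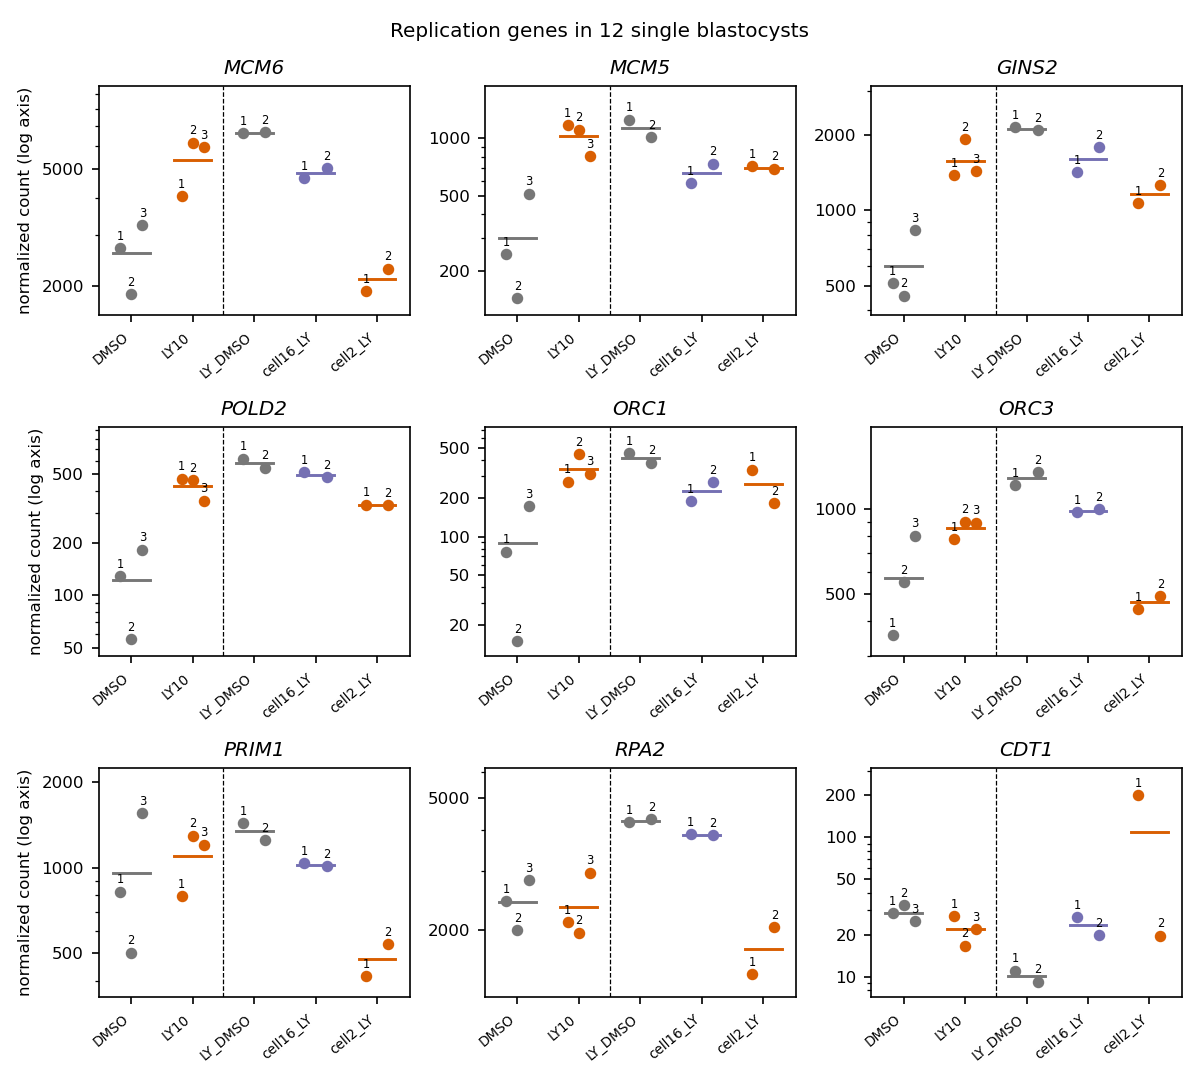
Normalized counts (log axis) of 9 replication genes in each of the 12 blastocysts, with the replicate number above each point, a line at each group mean and a dashed line between the 2 tables, which were normalized separately. LY10 lies above DMSO for MCM6, MCM5, GINS2, POLD2 and ORC1, and cell2_LY lies below LY_DMSO for every gene shown except CDT1.

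The 2 experiments with LY from the 2-cell stage thus gave opposite signs for most of the genes: 31 of the 43 were positive in LY10 and negative in cell2_LY, and CDT1 was the 1 gene with the reverse. The sign was positive in both for 6 and negative in both for 5. With 37 positive in LY10 and 36 negative in cell2_LY, most of the 31 follow from those 2 counts alone. Of all tested genes 47.4% were positive in LY10 and 50.1% in cell2_LY, and opposite signs were not counted over all genes. The comparisons share no libraries, but the tables were normalized separately, and the difference between the experiments was not tested. The solvent groups also stood apart, with MCM6 at 2698, 1887 and 3225 normalized counts in DMSO and 6616 and 6659.9 in LY_DMSO, each on the scale of its own table. A difference between the solvent groups and an exchange of the group labels in either table cannot be told apart in these files, so each direction given here is that of the labels. In FPKM, MCM5 stood at 9.42, 5.54 and 19.6 in DMSO, 31.1 to 45.1 in LY10, 33.7 and 27.2 in LY_DMSO, and 19.1 and 18.6 in cell2_LY. For this gene the LY10 and LY_DMSO blastocysts were the highest and the DMSO blastocysts overlapped with cell2_LY. Other genes had no such overlap. MCM6 stood at 64.5 to 110 FPKM in DMSO and 46.0 to 54.9 in cell2_LY, and ORC6 at 100.1 to 118 and 22.5 to 38.9. How many of the 43 overlapped in this way was not counted.

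In blastocysts given LY from the 16-cell stage no replication gene passed the call against LY_DMSO. Of the 43, 0 were called higher or lower in limma, where 3.25% and 1.97% of all tested genes were called. At an unadjusted p under 0.05 alone, 5 were lower and 0 higher, where 1107 of all 14529 tested genes had such a p in either direction. The direction was nevertheless mostly downward, with 34 negative and 9 positive log2 fold changes and a median of -0.29, against -0.01 over all genes. Both cell16_LY libraries lay below both LY_DMSO libraries for 22 of the 43 (22.0% of all tested genes) and above them for 1 (20.9% of all tested genes). This comparison and that of cell2_LY share their LY_DMSO libraries.

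The smallest p values were those of MCM5, POLD1 and LIG1. MCM5 measured 1257 and 1012 normalized counts in LY_DMSO and 583 and 736 in cell16_LY (log2 fold change -0.78, SE 0.27, adjusted p = 0.592). POLD1 measured 261 and 264 in LY_DMSO and 143 and 138 in cell16_LY (log2 fold change -0.90, SE 0.34, adjusted p = 0.620). LIG1 measured 975 and 931 in LY_DMSO and 565 and 588 in cell16_LY (log2 fold change -0.72, SE 0.28, adjusted p = 0.620). None of the 3 overlapped between the groups. GINS1 and ORC1, the others of the 5, had -0.71 and -0.89. RPA2, ORC5 and RFC3, which were called in cell2_LY, had -0.14, -0.10 and -0.29 here, and PCNA measured 5471 and 4954 against 5712 and 5197 in LY_DMSO. Proliferation markers were at 254 to 268 FPKM in cell16_LY, below both LY_DMSO libraries, with 0 of 6 called. Trophectoderm markers were at 5744 to 6868 FPKM in cell16_LY, with 1 of 10 called higher, epiblast markers at 409 to 503 and hypoblast markers at 202 to 370.2, and their part in the result was not tested.

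Compared directly, the replication genes were mostly higher in cell16_LY than in cell2_LY. In limma 6 were called higher, where 5.58% of all tested genes were, and 1 was called lower, where 5.77% were. Of the 43, 31 were positive and 12 negative, with a median log2 fold change of 0.46, against 0.04 over all genes. Both cell16_LY libraries exceeded both cell2_LY libraries for 23 (28.2% of all tested genes) and lay below them for 5 (26.3% of all tested genes). The comparison shares its libraries with those above, so its calls are not separate evidence. Of the markers, 1 of 6 proliferation markers was called higher in cell16_LY (PLK1, log2 fold change 1.59), 1 of 10 trophectoderm markers higher (IFNT2, 2.87) and 2 lower (CDX2, -1.84, and GATA2, -1.94), and 1 of 7 epiblast markers lower (DNMT3B, -1.05). The median of the 6 proliferation markers was 0.42, and the part of these in the result was not tested.

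The 6 higher genes were MCM6, RPA2, ORC3, PRIM1, ORC5 and RFC3. MCM6 measured 4671 and 5033 normalized counts in cell16_LY and 1925 and 2299 in cell2_LY (log2 fold change 1.20, SE 0.24, adjusted p = 0.191). RPA2 measured 3878 and 3860.4 in cell16_LY and had a log2 fold change of 1.16 (SE 0.26), and ORC3, PRIM1, ORC5 and RFC3 had 1.08, 1.11, 1.38 and 1.01. RFC3, the nearest to the limit on size, lost its call under 7 alternatives, among them TMM scaling (0.99), log2(FPKM + 1) (0.99) and the fit without cell2_LY replicate 1 (0.46). LIG1 was the 1 gene called lower, with 565 and 588 in cell16_LY and 1444 and 1012 in cell2_LY (log2 fold change -1.07, SE 0.28, adjusted p = 0.193). The ring subunits moved apart, since MCM3 had -0.72 where MCM6 had 1.20. The number called higher depended on the cell2_LY libraries, with 3 without replicate 1 and 12 without replicate 2, and it was 1 when reads on genes served as the library size, a scaling that moved the median of all genes by -0.18.

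In bESCs no replication gene differed detectably with LY in the fit that took the libraries as unpaired. In limma 0 of the 43 were called, where 0.0375% of all tested genes were called in each direction, and 0 had an unadjusted p under 0.05, where 0.0999% of all tested genes did (16 of 16012). Log2 fold changes ran from -0.12 for GINS1 to 0.18 for ORC6, with a median of -0.02 and 16 positive and 27 negative. The 95% intervals of the 43 all lay between -0.87 and 0.90, so a difference of the call's size was outside each of them. Same-numbered bESC libraries deviated together (correlation 0.79), and p-values and intervals that take this pairing into account are not given here. Smaller differences within pairs are therefore not excluded.

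Named by the smallest p, ORC6 measured 481 and 453 normalized counts in bESC_tifx and 565 and 498 in bESC_LY, POLA2 had a log2 fold change of -0.11 and GINS1 of -0.12. Replicate numbers separated the bESC libraries more than LY did. GINS2 measured 3673 (bESC_tifx) and 4099 (bESC_LY) in replicate 2, and 2631 and 2801 in replicate 3. The median deviation of the 43 from their table mean on the log2 scale was 0.06 and 0.07 in the replicate 2 libraries of bESC_tifx and bESC_LY and -0.04 and -0.07 in the replicate 3 libraries. The median coefficient of variation of the 43 within a group was 7.23% in bESC_tifx and 7.89% in bESC_LY, lower than in any blastocyst group (11.3% to 32.3%). Over all genes it was 16.3% in bESC_tifx, 17.6% in bESC_LY and 16.5% to 35.2% in the blastocyst groups. The bESC libraries were also deeper. Trophectoderm markers summed to 98.7 to 296 FPKM in the bESC libraries, with KRT8 at 60.4 to 209 and IFNT2 and PAG2 at 0. Among them CDX2 stood at 0.37 (bESC_tifx) and 0.24 FPKM (bESC_LY) in replicate 2, and at 13.7 and 15.2 in replicate 3. Epiblast markers were at 1591 to 1740 FPKM, hypoblast markers at 41.3 to 148 and fibroblast markers at 68.9 to 70.6.

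**Figure D5:**
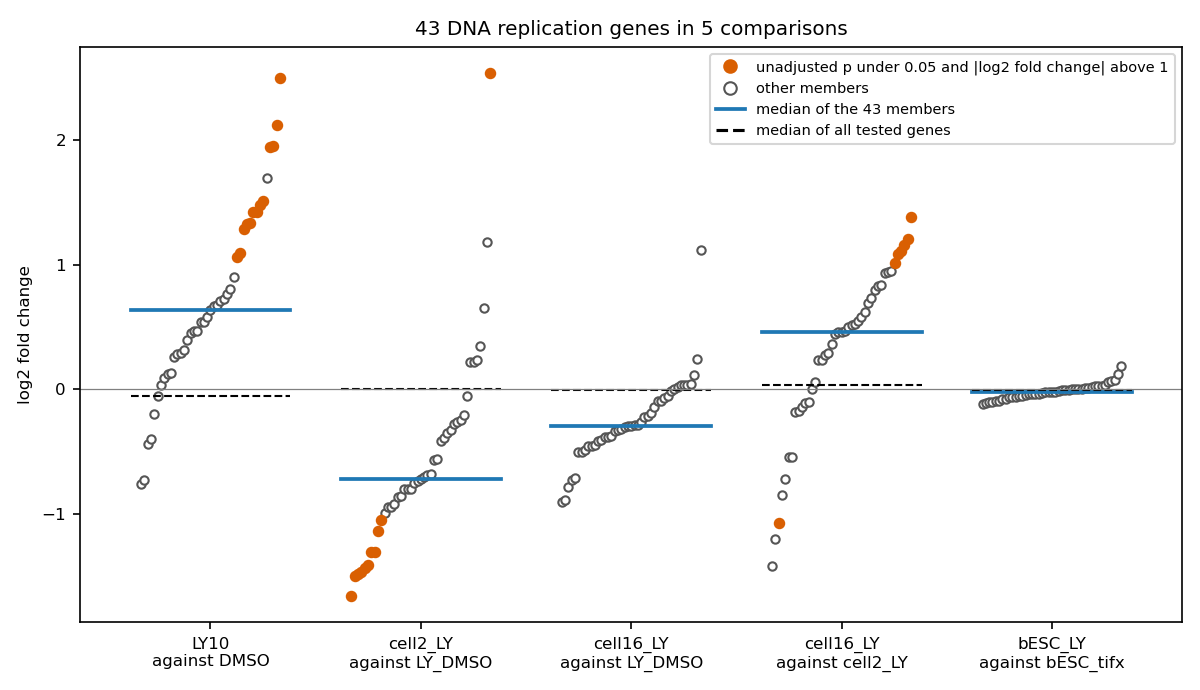
Log2 fold changes of the 43 genes in the 5 comparisons, sorted within each, filled where called, with the median of the 43 (blue line) and of all tested genes (dashed line). The median of the 43 is 0.64 in LY10, -0.72 in cell2_LY, -0.29 in cell16_LY against LY_DMSO, 0.46 in cell16_LY against cell2_LY and -0.02 in bESCs.

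Further genes around the fork were read from 3 lists: E2F and cyclin control (20 of 22 genes tested in blastocysts), nucleotide supply (19 of 20) and fork, accessory and chromatin assembly factors (35 of 37). In LY10 the fork list had 8 called higher and 0 lower, nucleotide supply 3 and 0, and E2F and cyclin control 1 and 1, where 6.20% of all tested genes were called higher and 8.51% lower. The 1 and 1 of 20 in E2F and cyclin control were below those shares. TOP2A, which untangles replicated DNA, measured 7587 ± 529 normalized counts in LY10 and 2626 ± 1145 in DMSO (log2 fold change 1.62), and the histone chaperone gene NASP rose with 1.38 and RNASEH2A with 1.17. The nucleotide synthesis genes UMPS, RRM1 and TYMS rose with 1.15, 1.08 and 1.03. CDKN1A, which encodes the cyclin-dependent kinase inhibitor p21, was the 1 gene of the first list called lower. It measured 279 ± 137 in DMSO and 68.9 ± 32.9 in LY10 (log2 fold change -2.01), and E2F4 was the 1 called higher, with 1.02. Of the 20 tested genes of that list, 10 had a positive and 10 a negative log2 fold change.

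In cell2_LY against LY_DMSO, 5 nucleotide supply genes and 5 fork and chromatin genes were called lower and 0 higher, and E2F and cyclin control had 1 higher and 2 lower, where 8.71% of all tested genes were called higher and 8.34% lower. For the 20 genes of E2F and cyclin control this is near the share of all genes. UMPS fell from 4414 ± 1830.2 to 1224 ± 613 (log2 fold change -1.88), and the purine synthesis genes PPAT and PAICS fell with -1.50 and -1.39. CHAF1B, DTL and WDHD1, from the list of fork, accessory and chromatin assembly factors, fell with -1.63, -1.25 and -1.13. CDKN1A was again opposite to the replication genes, at 111 ± 35.8 in LY_DMSO and 344 ± 55.2 in cell2_LY (log2 fold change 1.64), and the cyclin gene CCNE2 had -1.79. UMPS and CDKN1A were called in both experiments with opposite signs, and that difference was not tested either. In cell16_LY against LY_DMSO 0 genes of the 3 lists were called. In cell16_LY against cell2_LY 3 of 19 nucleotide supply genes were called higher, where 5.58% of all genes were. There 1 of the 20 E2F and cyclin control genes was called lower, again near the 5.77% of all genes, and this was E2F1 at 5.47 ± 2.78 against 41.7 ± 35.2 normalized counts. In bESCs 0 were called among 22, 20 and 37 tested genes.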

How the data were processed

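RNA sequencing of 12 single blastocysts (SMART-seq) and 4 bESC libraries was used. The authors trimmed reads with fastp, aligned them (HISAT2 2.0.5 per the labels, with STAR also named in the methods), counted them with featureCounts 1.5.0-p3, compared groups with DESeq2 1.20.0 and deposited FPKM values with gene lengths. The genome build is not given in the sources used here. The start and end of 42 of the 43 genes equal RefSeq ARS-UCD2.0. The tables also hold the authors' fold changes and p-values, which were not used.

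FPKM times gene length gave whole reads within 0.02 for 100% of the values. Reads were divided by the library size implied by FPKM and multiplied by the table's geometric mean library size (normalized count). On log2(normalized count + 1), limma 3.58.1 (R 4.3.3, lmFit, eBayes with trend) tested genes whose mean normalized count reached 10, a scale that understates changes of low genes. All 3 groups of the second blastocyst experiment entered 1 fit. The test was checked on simulated data. Count models were not run because the files hold FPKM. Tables and figures used Python 3.11.15.

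Genes and lists were chosen with earlier results of these data known. Per comparison the members called (at most 10, by p) were named, or the 3 with the smallest p where fewer than 3 were called. Other members are given by role. Of the other lists, the 3 genes with the smallest p were named. Replicate numbers were checked for pairing and did not pair the blastocysts of the first table (correlations of -0.12, 0.17 and -0.10). Alternatives were other pseudocounts (0.5, 5), other filters (none, a mean of 50), log2(FPKM + 1) with a mean FPKM of 0.5 or more, quantile and TMM scaling, reads on genes as library size, voom and sample weights, a replicate block, fits of the compared pair of groups, and leaving out each library. A crossed replicate block was added after seeing the data. Promoter and protein sequences were not analysed here.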

Additional observations from a re-analysis of the deposited data

Results flagged for a closer look

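For 9 of the 43 genes every LY10 library moved 1 way against DMSO and every cell2_LY library moved the opposite way against LY_DMSO, although both treatments began at the 2-cell stage. Such opposite pairs were not counted over all tested genes. Of all tested genes, every library was higher for 13.8% and lower for 14.4% in LY10, and for 26.9% each way in cell2_LY. The difference between the experiments was not tested, since the tables were normalized separately. Log2 fold changes in LY10 and in cell2_LY were 2.49 and -0.75 for ORC1, 1.95 and -0.68 for MCM5, and 1.06 and -1.66 for MCM6. They were 1.42 and -0.87 for GINS2, 1.94 and -0.80 for POLD2, and 0.54 and -0.68 for POLD3. They were 0.54 and -1.04 for RFC4, 1.48 and -0.92 for RFC5, and 1.09 and -0.24 for FEN1. MCM6 was the 1 gene of the 9 called in both experiments. No group held 4 libraries, so no library was tested as standing apart within its group.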

How the results depend on the processing

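Groups held 2 or 3 libraries, and the effect of lower depth was not tested. The numbers called below are given without the share of all genes called under the same setting. A change particular to the 43 is therefore not separated from a general gain or loss of calls. In LY10 the number called higher was 12 to 13 under the 11 settings other than leaving out a library, and 8 to 14 without each library in turn, with 8 without DMSO replicate 2. In cell2_LY the number called lower was 7 with quantile scaling, 8 with reads on genes, 10 under the other settings that kept every library of the table, and 8 to 15 without each library. The 1 gene called higher (CDT1) became 0 at a mean of at least 50, with log2(FPKM + 1), with voom and with only the 2 groups fitted, 2 with the crossed block, and 0 to 2 without each library. The median of the 43 there was -0.56 with quantile scaling, -0.49 with reads on genes (which moved the median of all genes by 0.24), and between -0.81 and -0.58 without each library. In cell16_LY against cell2_LY the number higher was 2 with quantile scaling, 1 with reads on genes and 3 to 12 without each library. The number lower was 0 with log2(FPKM + 1), 2 with reads on genes, the crossed block or only the 2 groups, and 0 to 5 without each library. The median there was 0.25 with reads on genes and 0.29 to 0.60 without each library. In bESCs the median of the 43 ran from -0.076 to 0.071 without each library, and GINS1 from -0.25 to 0.011. The cause was not tested. With the replicate block the numbers called were 13 and 0 (LY10), 1 and 10 (cell2_LY), 0 and 0 (cell16_LY), 6 and 1 (cell16_LY against cell2_LY) and 0 and 0 (bESCs), as without it. For bESCs this result was fixed in advance. Each replicate number occurred in both bESC groups, so the block left the log2 fold changes as they were. The largest was 0.18, under the call's limit of 1. The bESC p-values with the block are not given here. The same-numbered bESC libraries deviated together (correlation 0.79), and those of cell16_LY and LY_DMSO oppositely (-0.23). MCM7, FEN1 and MCM6 lost their calls in LY10 without DMSO replicate 2, and MCM6 also without LY10 replicate 2 or 3.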
